A study of Mus musculus with 36 samples.

Results

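The genes described here encode the Polycomb repressive complex PRC2: Ezh1, Ezh2, Eed, Suz12, Jarid2, Mtf2 and Phf19. They were followed through the peak lists of a study that mapped MBD3, CHD4, SIN3A and GFP-tagged ZFP296 on chromatin of mouse ESCs (embryonic stem cells) and of NPCs, the neural progenitor cells derived from them. Of 104813 peaks in 9 lists, 227 had their midpoint within 50 kb of the body of a PRC2 gene in the GENCODE vM1 annotation of mm9, and all 7 genes had at least 1. The set was selected on measured peak values, because Ezh2 carries an MBD3 site that was listed in both cell types and ranked first in ESC replicate 1, so that pattern is given below as a description and was not tested.

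PRC2 places methyl groups on lysine 27 of histone H3, a mark of repressed developmental genes. Either EZH1 or EZH2 provides the catalytic activity, EED and SUZ12 are needed for it, and JARID2, MTF2 and PHF19 are accessory subunits that help to bring the complex to its targets. MBD3 and CHD4 are subunits of another repressor, the nucleosome remodelling and deacetylase complex NuRD, in which CHD4 is the remodelling ATPase. SIN3A is the scaffold of a separate deacetylase complex, and ZFP296 is a zinc finger protein of pluripotent cells.

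Wild-type R1 ESCs, a line derived from a mouse blastocyst, were grown with serum, LIF and 2i inhibitors and gave 2 MBD3 lists, 2 CHD4 lists, and 1 SIN3A list each with and without spike-in chromatin. NPCs were derived in culture from the same wild-type R1 cells, were kept in NPC medium, and gave 1 MBD3 and 1 CHD4 list. GFP-ZFP296 was mapped with a GFP antibody in 1 sample of ESCs that the labels call ZFP296-BAC R1, whereas the methods describe a GFP-tagged construct transfected into KH2 ESCs. All 29974 peaks of CHD4 replicate 2 carry names that refer to a Zfp219 BAC line, although the sample is labelled wild-type. Peak lists hold no expression values, so the identity of the cells could not be checked against marker genes. The lists held 2344 and 7551 peaks for MBD3 in ESCs, 2304 for MBD3 in NPCs, 11712 and 29974 for CHD4 in ESCs, 20234 for CHD4 in NPCs, 16170 and 11422 for SIN3A without and with spike-in, and 3102 for GFP-ZFP296. Every peak has 1 deposited value, the −log10 significance given by the peak caller, called the peak value below. It is not a level of binding, and it grows with sequencing depth. Peak names of the 7 lists other than SIN3A refer to 17000000 reads each, and those of SIN3A give no number of reads.

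The sequences under 6 peak regions are shown because they hold the sites on which the descriptions of Ezh2, Eed, Mtf2 and Jarid2 turn: for each of Ezh2, Eed and Mtf2 the site found in the most lists, and for Jarid2 one of the sites in 7 lists, the site with its highest MBD3 value, and the site at its start that was listed in NPCs. Each is the stretch shared by the peaks of the named number of lists, taken from mm9 and written 5′ to 3′ on the strand of the gene. Capitals mark a CCATTGT match, the one match to the short strings searched on both strands, which were the telomere repeat TTAGGG, the AP-1 string TGACTCA (whose reverse complement is TGAGTCA), the SOX string CCATTGT, the octamer ATGCAAAT, the E2F strings TTTCGCGC and TTTGGCGC, the E-box CACGTG, the ETS string CCGGAAG, the YY1 string AAGATGGC and the NRF1 palindrome. CCATTGT also occurred in 172 of 2342 windows of the same length centred on the peaks of MBD3 replicate 1 (7.34%), so its presence in 1 of 6 regions marks nothing out.
Ezh2 intron 1, 8 lists, minus strand, chr6:47544233-47544480: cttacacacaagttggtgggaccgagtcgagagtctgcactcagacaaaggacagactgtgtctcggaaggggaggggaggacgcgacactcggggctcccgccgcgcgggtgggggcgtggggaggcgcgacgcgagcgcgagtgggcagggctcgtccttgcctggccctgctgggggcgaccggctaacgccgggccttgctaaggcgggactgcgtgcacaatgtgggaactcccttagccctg
Eed intron 2, 6 lists, minus strand, chr7:97124190-97124375: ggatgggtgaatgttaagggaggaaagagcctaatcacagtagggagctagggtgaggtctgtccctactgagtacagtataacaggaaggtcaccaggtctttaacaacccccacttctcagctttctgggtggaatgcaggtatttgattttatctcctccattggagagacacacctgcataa
Mtf2 intron, 5 lists, plus strand, chr5:108506086-108506330: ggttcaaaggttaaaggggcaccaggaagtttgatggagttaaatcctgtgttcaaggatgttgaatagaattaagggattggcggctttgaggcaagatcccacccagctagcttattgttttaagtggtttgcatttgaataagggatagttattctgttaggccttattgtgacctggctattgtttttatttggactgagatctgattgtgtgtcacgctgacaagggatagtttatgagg
Jarid2 upstream, 7 lists, plus strand, chr13:44817623-44817866: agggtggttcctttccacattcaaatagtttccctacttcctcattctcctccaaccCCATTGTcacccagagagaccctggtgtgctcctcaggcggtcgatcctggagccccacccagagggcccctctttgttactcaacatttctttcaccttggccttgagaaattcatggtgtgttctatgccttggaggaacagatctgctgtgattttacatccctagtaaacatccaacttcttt
Jarid2 distal intron, 5 lists, plus strand, chr13:44946908-44947205: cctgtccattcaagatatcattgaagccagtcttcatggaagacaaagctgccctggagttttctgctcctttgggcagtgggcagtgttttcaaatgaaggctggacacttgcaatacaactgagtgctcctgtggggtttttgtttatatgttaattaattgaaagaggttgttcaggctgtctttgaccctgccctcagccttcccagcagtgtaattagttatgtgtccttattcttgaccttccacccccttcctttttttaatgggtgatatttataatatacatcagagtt
Jarid2 start, both NPC lists, plus strand, chr13:44825701-44825930: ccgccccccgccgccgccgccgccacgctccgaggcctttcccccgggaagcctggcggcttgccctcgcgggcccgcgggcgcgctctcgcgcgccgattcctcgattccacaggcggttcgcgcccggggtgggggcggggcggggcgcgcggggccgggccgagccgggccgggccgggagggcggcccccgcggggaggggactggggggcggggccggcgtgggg
The base composition of these stretches fell into separate ranges. The Ezh2 and Jarid2 start stretches, which had NPC peaks, were 68.1% and 86.1% G and C with 24 and 41 CpG dinucleotides. The other 4, which had ESC peaks alone, were between 41.2% and 48.8% G and C with 0 to 2 CpG. Both of the former lay within 1 kb of a transcript start of their gene, and none of the latter did.

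Across the 7 genes, Jarid2 held the most peaks and Phf19 the fewest, as shown in the grid of peak counts. Jarid2 had 76 peaks in all 9 lists, Eed and Mtf2 had 33 each in 7 and 8 lists, Suz12 had 29 in 6 lists, Ezh1 24 in 7 lists, Ezh2 21 in 8 lists and Phf19 11 in 4 lists. Of the 227 peaks, 78 lay within the gene bodies, 116 upstream and 33 downstream. The window of Jarid2 was the longest, at 292.2 kb against 120.3 to 165.1 kb for the other genes, and its count is partly a count of sequence searched. With peaks counted per length of window, 3.01% of 22367 protein-coding genes had at least as many MBD3 replicate 1 peaks as Jarid2, and 3.87% as many in replicate 2, while 1.35% and 1.34% had as many as Eed. By count alone the 2 MBD3 shares for Jarid2 were 0.295% and 0.425%, and the correction raised its share in all 9 lists. The share with as many CHD4 replicate 1 peaks rose from 0.322% by count to 3.73% per length. That for CHD4 replicate 2 rose from 1.29% to 11.6%, that for NPC CHD4 from 11.7% to 29.4%, and that for SIN3A without spike-in from 8.56% to 29.8%.

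**Figure D1:**
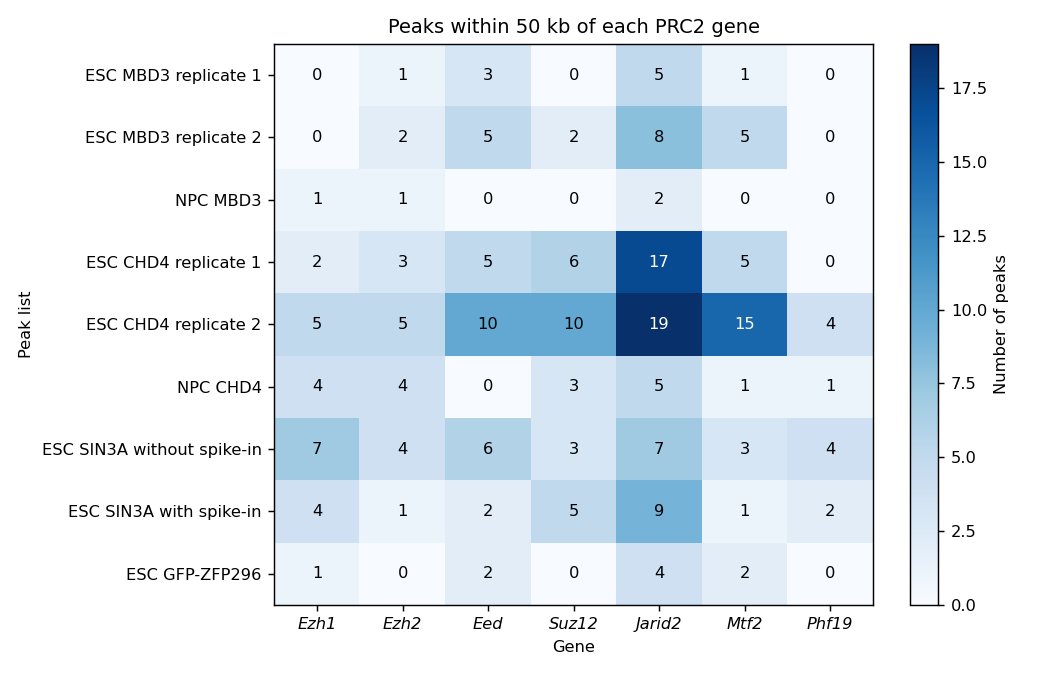
Number of peaks with a midpoint within 50 kb of each PRC2 gene (columns) in each of the 9 peak lists (rows), printed in each cell and shaded on a linear scale. Jarid2 has the most peaks in both ESC CHD4 lists (17 and 19), Eed has 0 in both NPC lists, and Phf19 has 0 in all 3 MBD3 lists.

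MBD3 replicate 1 had a peak within 50 kb of 4 of the 7 genes, against 15.8% of all protein-coding genes, and replicate 2 of 5 genes, against 33.1%. In NPCs the count was 3 genes, against 15.7%. CHD4 reached 6 and 7 genes in the ESC lists (43.0% and 67.7% of all genes) and 6 in NPCs (57.9%). SIN3A reached all 7 in both preparations (65.1% without and 59.2% with spike-in), and GFP-ZFP296 reached 4 (21.9%). Both SIN3A lists and CHD4 replicate 2 therefore covered every member, but these lists also covered most genes of the genome. Since the rule that chose the genes used these peaks and the windows differ in length, nothing is read from the counts against those shares.

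At the transcript starts themselves, taken as a midpoint within 1 kb of any annotated start, MBD3 was listed at 2 of the 7 genes in any list (6.44% of all genes), CHD4 at 6 (29.7%; also 6 without CHD4 replicate 2) and SIN3A at 7 (44.6%). MBD3 was at the Ezh2 start in ESC replicate 1 (2.36% of all genes), in replicate 2 (3.43%) and in NPCs (2.49%), and at the Jarid2 start in NPCs. CHD4 was at 4 starts in ESC replicate 1 (8.49%), namely Ezh1, Ezh2, Suz12 and Jarid2, at 4 in replicate 2 (22.8%), with Mtf2 in place of Suz12, and at 5 in NPCs (13.1%), namely Ezh2, Suz12, Jarid2, Mtf2 and Phf19. SIN3A was at all 7 starts without spike-in (41.2%) and at all but Mtf2 with spike-in (33.8%). Sites found in both lists lay at the Ezh2 start alone for MBD3 in ESCs (0.805% of all genes), at 3 starts, Ezh1, Ezh2 and Jarid2, for CHD4 in ESCs (5.92%), and at 6, all but Mtf2, for SIN3A (28.8%). The Jarid2 site for CHD4 was at an internal start, 4.6 kb inside the gene. Annotated starts ranged from 2 at Eed to 17 at Jarid2, so the genes had unequal numbers of places to match. GFP-ZFP296 was at 0 of the 7 starts, against 2.88% of all genes. In the 300 bp around the annotated 5′ end of each gene, Jarid2 had 8 CpG and the others 17 to 41, with a median of 11 over the 5′ ends of all protein-coding genes. The Jarid2 stretch printed above lies farther inside the gene, near other annotated starts. TTAGGG occurred in the 300 bp of Eed, as in 10.3% of 5′ ends, and AAGATGGC in that of Phf19, as in 3.30%.

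Ezh2, on the minus strand at chr6:47480273-47545340, encodes the main methyltransferase of PRC2 in dividing cells. Its first intron held a site with MBD3 values of 55.4 and 42.7 in the ESC replicates and of 48.4 in NPCs. These ranked 1 of 2344, 13 of 7551 and 9 of 2304 in their lists. CHD4 was listed over the same stretch with values of 37.8 and 48.8 in the ESC replicates, at ranks 36 and 57, and with 15.1 in NPCs, at rank 3040 of 20234. MBD3 thus stood near the top of its list in both cell types, whereas CHD4 did so in both ESC lists and had 85.0% of its list below it in NPCs. SIN3A had a value of 31.8 without spike-in (rank 584 of 16170) and 13.4 with spike-in (rank 2112 of 11422). GFP-ZFP296 had no peak within 50 kb of Ezh2.

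The midpoints of the highest peak of each of these 8 lists lay between 761 and 990 bp inside the annotated 5′ end of Ezh2. All 8 peaks shared the 248 bp printed above, and the midpoint of that stretch was in intron 1 of the 5 Ezh2 transcripts that spanned it. Of 62184 merged regions over the 9 lists, 62 (0.0997%) held peaks of 8 or more lists. Nothing is read from this share, since the genes were selected on the MBD3 peaks of this site. A second site lay at the 5′ end itself, with CHD4 values of 5.93 and 7.73 in ESCs and a SIN3A value of 14.2 without spike-in, and with no MBD3 peak in either cell type. The lanes of the Ezh2 start show MBD3 at the inner of these sites and not at the outer one in any of its 3 lists.

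**Figure D2:**
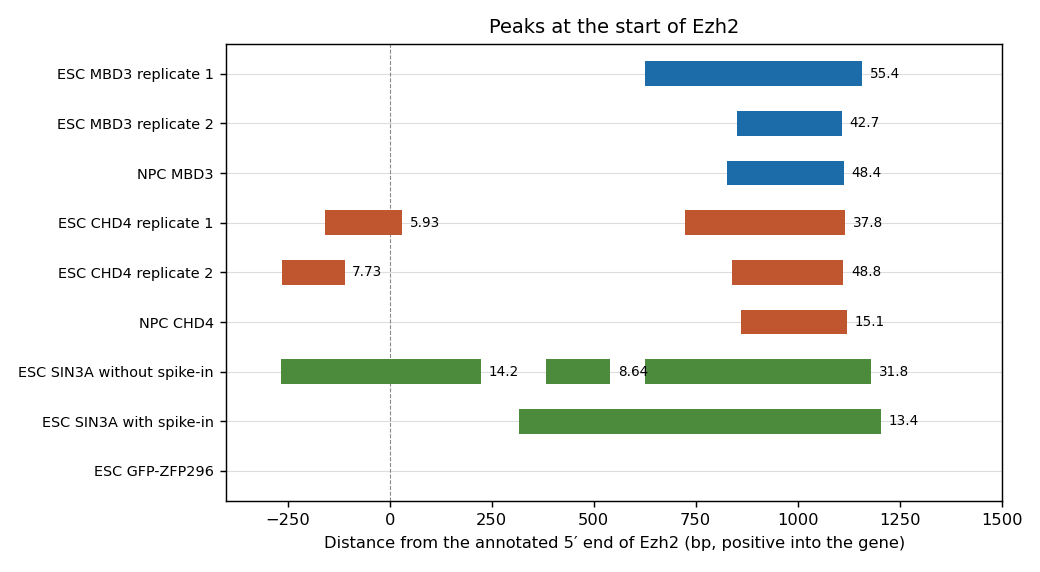
Peaks at the start of Ezh2 in the 9 lists (rows), drawn to scale against the distance in bp from the annotated 5′ end (dashed line), with the peak value beside each bar. The peaks of 8 lists stack between 761 and 990 bp inside the gene by midpoint, and the GFP-ZFP296 row is empty.

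The remaining peaks around Ezh2 were spread thinly. CHD4 was listed 13.2 kb upstream with values of 6.78 and 19.6 in the ESC replicates. In NPCs CHD4 had values of 20.4 at 26.0 kb upstream and 17.9 downstream of Ezh2 within Cul1, both without a peak in any ESC list and both higher than the 15.1 at intron 1. Another Cul1 site had MBD3 replicate 2 at 9.16, CHD4 replicate 2 at 6.28 and SIN3A without spike-in at 11.8.

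A start with peaks in all 8 lists other than GFP-ZFP296 was found at 41 protein-coding genes (0.183%), and one with peaks in all 3 MBD3 lists at 59 (0.264%). Nothing is read from these shares, since the genes were selected on the Ezh2 site. The likeness of other genes to Ezh2 was measured over the 9 lists as the mean absolute difference in the share of the list lying below the highest peak at a start. A list without a peak at a start of the gene counted as 0. The most similar were Ctcf, the insulator protein, at 6.67 percentage points, Itpk1, an inositol phosphate kinase, at 7.97, Mex3a, an RNA-binding protein, at 9.98, Camta1, a transcription factor, at 11.7, and Dazap1, an RNA-binding protein, at 12.5. Dazap1 had 0 in SIN3A without spike-in, where Ezh2 had 96.4%. The largest differences between Ctcf and Ezh2 were in CHD4: 79.8% of the list lay below the peak of Ctcf and 99.7% below that of Ezh2 in ESC replicate 1, and 99.9% and 85.0% in NPCs.

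Ezh1, on the minus strand at chr11:101052429-101087777, encodes the second methyltransferase, which is less active and more prominent in cells that have stopped dividing. Its start had CHD4 values of 13.3 and 11.7 in the ESC replicates and SIN3A values of 13.0 and 19.4, and no peak in either NPC list. No ESC MBD3 list had a peak within 50 kb of Ezh1, and the MBD3 peak in NPCs had a value of 3.92 (rank 2272 of 2304), 2.9 kb from a start of the neighbour Plekhh3. In ESCs the starts of Ezh1 and Ezh2 thus both had CHD4 and SIN3A in each list, and MBD3 was listed at that of Ezh2 alone. Of the 24 peaks in the Ezh1 window, 11 lay at the start of a neighbouring gene, Cntnap1, Plekhh3, Ramp2, Vps25 or Wnk4. GFP-ZFP296 had 1 peak, ranked 1038 of 3102, at 4.7 kb upstream.

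Eed, on the minus strand at chr7:97103166-97129493, encodes the subunit that reads the methylated histone. It had 0 peaks in both NPC lists within 50 kb, while the 7 ESC lists held 33. Its second intron, 5.2 kb inside the gene, had MBD3 values of 10.3 and 19.1, CHD4 values of 11.4 and 18.2, a SIN3A value of 16.1 without spike-in and a GFP-ZFP296 value of 14.0 (rank 424 of 3102). No SIN3A peak with spike-in was listed there. A pair of MBD3 sites, 42.5 and 44.1 kb upstream, was found in both ESC replicates with values of 3.56 and 11.0 at the former and 8.31 and 14.7 at the latter. CHD4 replicate 2 was listed at both of these and CHD4 replicate 1 at the latter. A further upstream site, 16.7 kb out, was in MBD3 replicate 2 (12.9), CHD4 replicate 2 (17.3) and GFP-ZFP296 (9.95). The Eed start itself held SIN3A alone, at 12.4 without and 6.72 with spike-in.

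**Figure D3:**
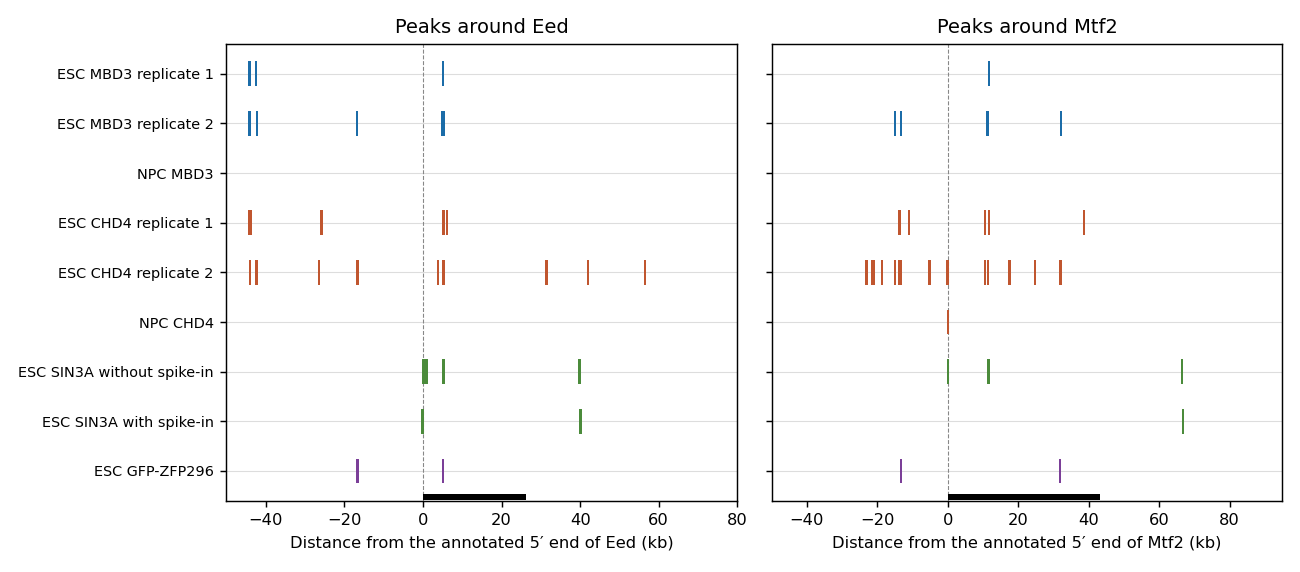
Peaks around Eed (left) and Mtf2 (right) in the 9 lists (rows), against the distance in kb from the annotated 5′ end (dashed line, negative upstream), with the gene body as a black bar. Bars are drawn at least 0.6 kb wide. Both genes have an intron site in both MBD3 and both CHD4 ESC lists, at 5.2 and 11.6 kb, and NPC peaks are limited to 1 CHD4 peak at the Mtf2 start.

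Suz12, on the plus strand at chr11:79806608-79847625, encodes the core subunit around which the complex assembles. CHD4 formed a cluster upstream of it in both ESC replicates. The sites found in both had values of 14.9 and 12.1 at 15.6 kb upstream, 10.6 and 8.92 at 14.7 kb, 14.2 and 14.5 at 13.6 kb, and 10.6 and 12.8 at 12.3 kb. None of the 4 had a CHD4 peak in NPCs. MBD3 was listed there in replicate 2 alone, with 10.6 at 12.3 kb and 8.55 at 16.9 kb, so no Suz12 site was found in both MBD3 replicates. Near the start, CHD4 had values of 4.15 in ESC replicate 1 and 8.03 in NPCs at separate places, and SIN3A had 8.19 without spike-in and 6.67 with it as highest values.

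Jarid2, on the plus strand at chr13:44824843-45017012, encodes a JmjC-domain protein without demethylase activity that recruits PRC2 in ESCs. It held 5 of the 10 MBD3 sites found in both ESC replicates and 14 of the 28 CHD4 sites. The upstream site, 7.2 kb before the 5′ end, had MBD3 values of 11.3 and 15.6, CHD4 values of 18.1 and 25.8, SIN3A values of 8.28 and 11.1 and a GFP-ZFP296 value of 9.10. An intron site at 22.4 kb was in the same 7 lists, with MBD3 values of 11.2 and 15.1. Neither had a peak in the NPC lists. Another, 23.8 kb upstream, was in 6 lists, with a merged width of 1070 bp and a CHD4 value of up to 28.8.

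The Jarid2 site at 122.2 kb, in an intron of 13 annotated transcripts, had its highest values in GFP-ZFP296, at 46.8 (rank 11 of 3102), and in MBD3 replicate 2, at 45.0 (rank 11 of 7551). The MBD3 replicate 1 value was 7.88 (rank 1184 of 2344), below the median of its list, so the MBD3 replicates placed this site very differently. CHD4 had values of 15.2 and 28.6, and neither SIN3A list and neither NPC list had a peak. A SIN3A peak with spike-in at 140.2 kb reached 77.2 (rank 46 of 11422) with no peak in any other list. Of the 46 spike-in peaks with at least this value, 16 were absent from the other SIN3A preparation and 13 from every other list.

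In NPCs none of the 7 peaks of Jarid2 overlapped an ESC MBD3 or CHD4 peak. An MBD3 value of 8.09 and a CHD4 value of 9.92 were listed together 1.0 kb inside the gene, where ESCs had SIN3A at 12.7 and 7.76 but neither MBD3 nor CHD4. A second NPC pair at 55.4 kb had MBD3 at 4.77 and CHD4 at 11.6, and no ESC list had a peak there. A CHD4 peak in NPCs at 25.3 kb upstream, with a value of 7.03, lay beside the ESC CHD4 peaks at 25.0 and 24.9 kb without overlapping them. None of the 5 ESC MBD3 sites of Jarid2 had an NPC peak of either protein. The NPC MBD3 values were under the median of their list, 8.62, and rest on 1 sample.

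**Figure D4:**
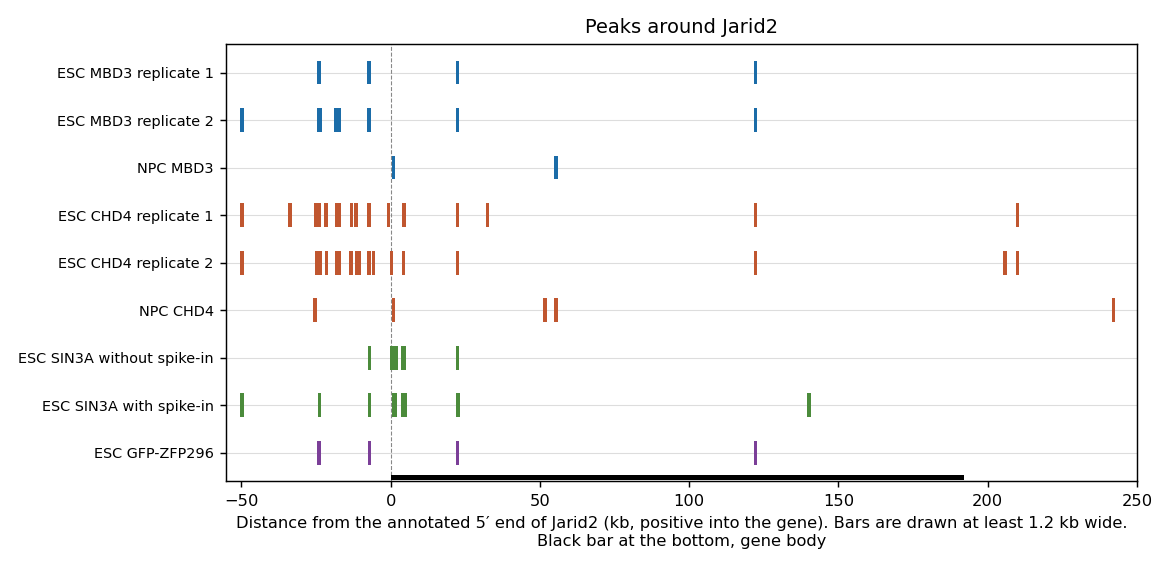
Peaks around Jarid2 in the 9 lists (rows), against the distance in kb from the annotated 5′ end (dashed line, negative upstream), with the gene body as a black bar and peaks drawn at least 1.2 kb wide. ESC MBD3, CHD4 and GFP-ZFP296 align 7.2 kb upstream and at 22.4 and 122.2 kb, and NPC MBD3 and CHD4 align with each other at 1.0 and 55.4 kb.

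Mtf2, on the plus strand at chr5:108494693-108538023, encodes a Polycomb-like protein that binds unmethylated CpG-rich DNA. An intron site at 11.6 kb had MBD3 values of 11.8 and 10.4, CHD4 values of 31.4 (rank 79 of 11712) and 23.6, and a SIN3A value of 15.4 without spike-in. The site 13.5 kb upstream had CHD4 at 21.6 and 13.6, MBD3 replicate 2 at 10.3 and GFP-ZFP296 at 12.0. Another intron site, near 32.0 kb, had MBD3 replicate 2 at 12.0, CHD4 replicate 2 at 9.89 and GFP-ZFP296 at 8.67. The start had no MBD3 peak, and held SIN3A at 37.7 without spike-in (rank 344 of 16170), CHD4 replicate 2 at 12.5 and NPC CHD4 at 15.9. SIN3A with spike-in had no peak at the Mtf2 start, so the 2 preparations disagreed where the value without spike-in was the highest near any of the 7 genes.

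Phf19, on the minus strand at chr2:34749277-34769546, encodes a second Polycomb-like protein. It had 0 peaks in the 3 MBD3 lists, in CHD4 replicate 1 and in GFP-ZFP296. At its 5′ end CHD4 was listed in NPCs with a value of 6.81, below the median of that list, and in neither ESC replicate. SIN3A was listed at an internal transcript start, 8.7 kb inside the gene, with 14.1 without and 4.90 with spike-in, and also at the start of the neighbour Psmd5. CHD4 replicate 2 had 4 peaks upstream, of which 1 lay at the start of Traf1.

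Over all members, 10 MBD3 sites were found in both ESC replicates, and genes with at least 1 such site make up 10.1% of all protein-coding genes. They lay at Jarid2 (5), Eed (3), Ezh2 (1) and Mtf2 (1). CHD4 of either ESC list overlapped 10 of these 10 sites (98.3% of all 1508 such sites in the genome), CHD4 replicate 1 alone 9 (85.9%), SIN3A of either list 6 (55.8%) and GFP-ZFP296 6 (42.0%). MBD3 in NPCs overlapped 1, the Ezh2 site, and 66 of 1508 in the genome (4.38%). Since the genes were selected on the Ezh2 site, nothing is read from this count.

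The 28 CHD4 sites found in both ESC replicates lay at Jarid2 (14), Suz12 (4), Ezh2 (3), Mtf2 (3), Ezh1 (2) and Eed (2), with genes holding at least 1 such site making up 36.8% of all genes. Without CHD4 replicate 2, whose peak names refer to another line, replicate 1 alone listed 38 peaks near the members. CHD4 in NPCs overlapped 2 of the 28 sites (7.14%), and 13.1% of 8246 such sites in the genome. The 2 were the Ezh2 intron site, on which the genes were selected, and a site downstream of Ezh1, 52.5 kb from its 5′ end and within Cntnap1 and Ccr10. Of 15 SIN3A sites found in both preparations, 5 were at Jarid2, 3 at Ezh1, 2 each at Suz12 and Phf19, and 1 each at the other 3 genes, where 53.5% of all genes hold at least 1.

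When overlapping peaks of the 9 lists were merged, the 227 peaks formed 110 regions. Of these, 62 were in 1 list (56.4%, against 64.1% of all regions) and 13 in 4 or more (11.8%, against 6.73%). ESC lists alone gave 92 regions (83.6%, against 67.2% of all regions), NPC lists alone 11 of the 110 (against 26.2%), and both cell types 7 (6.36%, against 6.63%). The 7 were at Ezh1 (3) and at Ezh2, Suz12, Jarid2 and Mtf2 (1 each), and none was at Eed or Phf19. Of these 7, 3 lay at the starts of neighbours, Plekhh3 and Vps25 in the Ezh1 window and Crlf3 in the Suz12 window, and the remaining Ezh1 region was 52.5 kb from its 5′ end. In 300 bp around the centre, the 7 regions had a median G and C share of 67.0% (range 60.0% to 82.0%) and 27 CpG, the 92 ESC regions 47.3% (33.3% to 75.3%) and 4 CpG, and the 11 NPC regions 48.0% (33.0% to 76.0%) and 3 CpG. The 4 of the 7 that were not at the start of a neighbour had 63.3% to 82.0%. Those of the 4 at Ezh2, Jarid2 and Mtf2 lay within 1 kb of a start of the gene itself. Over all regions the medians were 61.0% for both cell types, 52.7% for ESC alone and 46.7% for NPC alone, so the regions of both cell types had the highest median near the members and in the genome. Likewise the 10 ESC MBD3 sites had 71.0% G and C and 30 CpG at Ezh2 and 39.0% to 48.3% with 1 to 9 CpG at the other 9, and the genome medians were 70.7% for the 66 sites with an NPC MBD3 peak and 48.7% for the 1441 others on the assembled chromosomes. Of the 10 ESC MBD3 sites, that of Ezh2 alone was at a transcript start. Base composition and place at a start therefore cannot be told apart here. Whether either plays a part in which peaks were listed in both cell types was not tested.

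The peaks near the members were spread over much of each list's range of values. The MBD3 peaks had a median of 10.7 in ESC replicate 1 (list median 7.93), 10.5 in replicate 2 (8.28) and 6.43 in NPCs (8.62), where 1 of 4 exceeded the list median. CHD4 medians were 10.3 and 9.74 in ESCs (list medians 8.05 and 8.63) and 8.70 in NPCs (9.06). SIN3A medians were 12.1 and 7.32 (11.8 and 8.66), and GFP-ZFP296 had 9.95 (8.43). The members' median was thus below that of the list in both NPC lists and SIN3A with spike-in, and above it in the others. Values of different lists were not set on 1 scale.

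**Figure D5:**
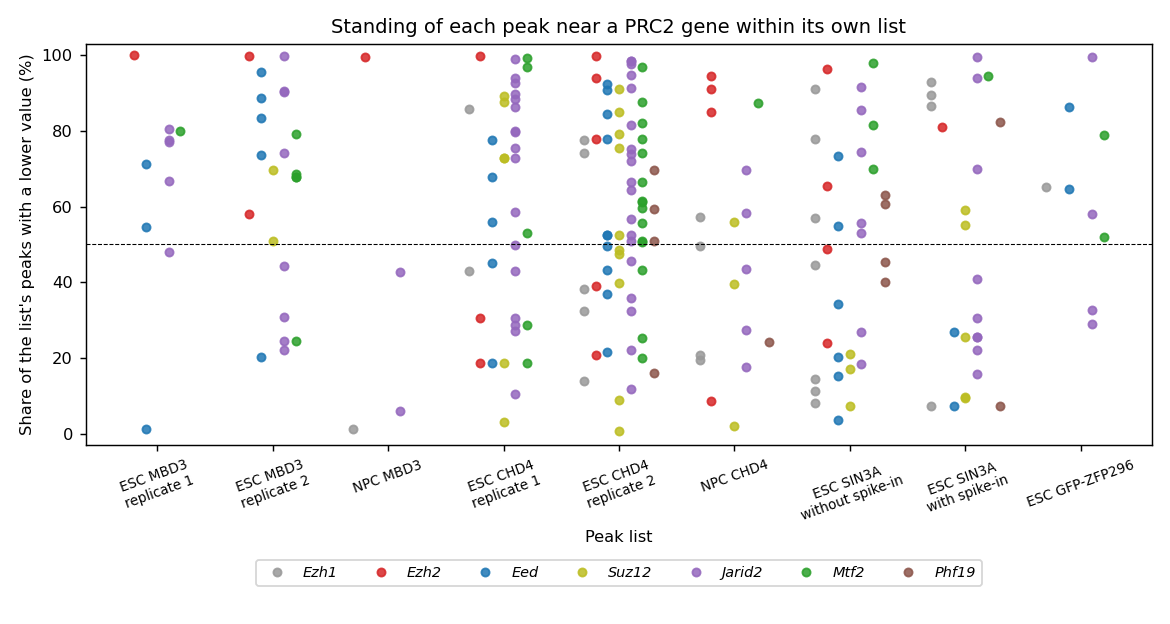
Share of its own list's peaks with a lower value (vertical axis, percent) for each of the 227 peaks within 50 kb of a PRC2 gene, by list (horizontal axis) and gene (colour). The dashed line marks the middle of the list. Ezh2 has a peak above 99% of its list in all 3 MBD3 lists, while the other 3 NPC MBD3 peaks lie below the middle.

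Some peaks touched other genes, and the choice of window decided others. In all, 24 of the 227 lay within 1 kb of the start of a neighbour, 11 near Ezh1, 4 near Suz12, 4 near Phf19, 3 near Eed (l7Rn6), 2 near Mtf2 (Ccdc18 and Tmed5) and 0 near Ezh2 and Jarid2. Those near Suz12 lay at Utp6 and Crlf3. At the edge of the window, the outermost Jarid2 peak inside was NPC CHD4 with a value of 8.44, and the nearest outside was CHD4 replicate 2 with 23.3 at 51.1 kb. For Suz12 the values were 9.66 at 49.1 kb inside and 11.2 at 51.4 kb outside, both NPC CHD4, and for Ezh2 5.42 at 38.1 kb (NPC CHD4) and 6.29 at 55.4 kb (CHD4 replicate 2).

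Ezh2 lies on chromosome 6, which held 8.86% of autosomal peaks in MBD3 replicate 1, 3.93% in replicate 2 and 9.21% in NPCs. In CHD4 it held 8.68% and 5.61% in the ESC replicates and 7.70% in NPCs, in SIN3A 5.74% without and 6.29% with spike-in, and in GFP-ZFP296, which had no peak at Ezh2, 2.69%. The replicates differed in this share, and its part in the listing of Ezh2 was not tested.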

How the data were processed

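ChIP-seq peak lists of 9 samples were used, and 27 of 36 samples were not used here. Per the study's methods, reads were aligned to mm9 with BWA, allowing 1 mismatch, and uniquely mapped reads without duplicates were kept. The authors called peaks with MACS version 2.0 in each sample against input, without pooling replicates, and deposited for each peak its position and a −log10 value. Whether this is of a p or q value is not given in the sources used here. Peak names give a threshold of 0.0001 for SIN3A without spike-in and of 0.001 for the other 8 lists, and in the 7 lists other than SIN3A refer to 17000000 reads each. The read number behind the SIN3A lists is not given in the sources used here, and no list gives reads per peak.

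Peaks were assigned by midpoint to the 22367 protein-coding genes of GENCODE vM1 on mm9 (window of 50 kb, starts within 1 kb) with Python 3.11.15, numpy 2.4.6, scipy 1.17.1 and pyfaidx 0.9.0.4, and scripts were tested on simulated peaks. A site found in both lists was a peak of the shorter list overlapping the longer by at least 1 bp. Replicates are separate samples by their labels. No difference was tested, since NPCs and GFP-ZFP296 have 1 list each and the genes were chosen on these peaks. The members and lists were chosen with earlier results of these data known. All members are described, as are neighbours with a peak at their start, the 5 genes most like Ezh2, and of 3 lists of other Polycomb genes those with MBD3 at a start in both ESC replicates or in NPCs, plus both demethylases. Alternatives were windows of 10 and 100 kb, any overlap with the window, values of at least 10, lists of equal size, a stricter overlap, midpoints within 500 bp, other start definitions and single lists.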

Additional observations from a re-analysis of the deposited data

How the results depend on the processing

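Of 56 alternative values for 11 results, 34 stayed within 1.5 times and 22 moved. The 10 ESC MBD3 sites became 6 with a window of 10 kb, 5 with peak values of at least 10 and 6 with lists of equal size (2304 peaks each), and 10 to 22 when 1 replicate was left out, the higher count being replicate 2 alone. The 28 ESC CHD4 sites became 10, 16 and 5 under the same 3 settings, and 38 to 68 with 1 replicate left out. The 15 SIN3A sites became 26 with a window of 100 kb, 7 with values of at least 10, 3 with equal lists, and 24 and 34 in the preparation with and without spike-in alone. The 18 NPC CHD4 peaks became 7 at 10 kb, 33 at 100 kb, 5 with values of at least 10 and 2 with equal lists. With values of at least 10 the 4 NPC MBD3 peaks became 1, the 9 GFP-ZFP296 peaks 4 and the 2 genes with MBD3 at a start 1. With starts taken from 1 kb upstream to 5 kb downstream, MBD3 was at 4 starts and GFP-ZFP296 at 1. The 1 ESC MBD3 site with an NPC MBD3 peak stayed 1 under every alternative run. It is the Ezh2 site on which the genes were selected, so nothing is read from its staying. The CHD4 and SIN3A counts at starts stayed within 1.5 times. The start count without CHD4 replicate 2 was added after seeing the data. Each setting changes the peaks or lengths counted, and the cause of each move was not tested. Peak lists hold no reads per peak, the SIN3A names give no read number, and a peak absent from a list is not shown to be absent from the cells. NPC MBD3, NPC CHD4 and GFP-ZFP296 rest on 1 list each. No paired analysis was possible because the values come from no test.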

Other observations

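Other genes of the Polycomb system were read in the same lists. Of 4 further PRC2 partners (Rbbp4, Rbbp7, Aebp2 and Phf1), Aebp2 alone, a zinc finger cofactor of PRC2, had MBD3 at a start, with values of 6.35 and 13.7 in the ESC replicates and none in NPCs. CHD4 was also listed at Aebp2 in ESCs, with 10.2 and 12.0, and SIN3A with 29.1 without and 6.82 with spike-in.

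Of 20 PRC1 genes, which encode the complex that places ubiquitin on histone H2A, SIN3A was at the start of 20 without spike-in (41.2% of all protein-coding genes) and 16 with it (33.8%), and GFP-ZFP296 of 1 (2.88%). CHD4 was at the start of 6 and 12 in the ESC replicates (8.49% and 22.8%) and 11 in NPCs (13.1%). MBD3 was at the start of 2 and 3 of them in the ESC replicates (2.36% and 3.43%) and of 2 in NPCs (2.49%). Phc1, a polyhomeotic subunit, had it in both ESC replicates (7.72 and 10.9), and the NPC genes were Ring1, a ubiquitin ligase (12.1), and Rybp, a subunit of variant complexes (8.42). Of the 2 demethylases that remove the PRC2 mark, Kdm6a had 0 peaks within 50 kb in all 9 lists. Kdm6a lies on chromosome X, as does Rbbp7, and the lists held few peaks off the autosomes. Autosomal peaks were 2325 of 2344 in MBD3 replicate 1, 2303 of 2304 in NPC MBD3 and 11637 of 11712 in CHD4 replicate 1. The absence at Kdm6a therefore cannot be told apart from that of its chromosome. Kdm6b had none at a start, and within 50 kb it had 0 and 1 MBD3 peaks and 2 and 6 CHD4 peaks in the ESC replicates, 6 CHD4 peaks in NPCs, and 11 and 9 SIN3A peaks without and with spike-in. Of the genes named here, Aebp2, Phc1 and Rybp lie, like Ezh2, on chromosome 6, whose share of peaks differed between the MBD3 replicates, and the part of that share in these listings was not tested.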
